A study of Mus musculus with 2 samples.

Results

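The genes described here are Vim, Nes, Fabp7, Slc1a3, Slc1a2, Mfge8, Ttyh1, Tnc, Hopx and Ptprz1, a set of structural and astroglial genes of radial glial cells (RGCs). They were taken by symbol, 10 of the 32285 genes counted, and every one was found and passed the filter on low counts. They were measured by single-cell RNA sequencing (scRNA-seq) in the cerebral cortex of mouse embryos. The labels give 2 libraries, both of wild-type (WT) genotype, from control animals of the EomesDot (Eomes-Cre) line at embryonic day (E) 16.5, dissociated with papain. The labels do not say whether a library holds 1 embryo or several, so any spread between them may be technical. A shift shared by all classes of a library was fitted out. The p-values measure only how far differences between classes disagree between these libraries, pooled over all classes of a fit. The study names C57BL/6J as the strain of its scRNA-seq embryos, which the labels do not state. The level of a gene in a cell class is given as CPM, its unique molecular identifiers (UMIs) summed over the cells of that class in 1 library and scaled in the usual way to all UMIs of those cells. Because reads come from transcript ends, levels are compared within a gene and not between genes.

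Radial glia are the stem cells of the embryonic forebrain. Their bodies line the ventricle, their long fibres reach the surface of the brain, and they give rise to neurons, often through intermediate progenitor cells (IPCs), and later to astrocytes and oligodendrocyte precursors. The filament proteins, lipid carrier, glutamate transporters and matrix proteins encoded by these genes are widely used to mark radial glia, and many are kept when the cells become astrocytes.

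On the GRCm38.p6 assembly (mm10) the genes lie apart. Vim (ENSMUSG00000026728) spans chr2:13574311-13582826, Fabp7 (ENSMUSG00000019874) chr10:57784923-57788450 and Tnc (ENSMUSG00000028364) chr4:63959785-64047015. The RefSeq annotation places no other gene over Vim, Nes, Fabp7, Slc1a3 or Mfge8. Over Tnc lies 8030451A03Rik, over Hopx lies Hopxos, over Ttyh1 lie 9430041J12Rik and D030047H15Rik, and over Slc1a2 lies Gm13872, all of them counted as genes of their own. LOC115490297 over Hopx, LOC115489466 over Slc1a2 and Gm30493 and Gm46954 over Ptprz1 were not among the genes counted. How reads of such overlaps were shared out is not given in the sources used here.

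The 250 bases before the transcription start are printed for Fabp7, whose promoter is known as a target of Notch signalling in radial glia, and for Tnc, added after its values were seen because it had the largest difference between RGC-like cells and neurons. Both are RefSeq sequences of GRCm38.p6, written in the direction of transcription, for Fabp7 chr10:57784673-57784922 (plus strand) and for the outer of the starts of Tnc chr4:64047016-64047265 (minus strand). Capitals mark TGGGAA, the core bound by the Notch factor RBPJ, found on the reverse strand in both and so read as TTCCCA. Besides it, TGCCAA, to which nuclear factor I binds, was searched on both strands, with AACAAT and TAATTA.
Fabp7: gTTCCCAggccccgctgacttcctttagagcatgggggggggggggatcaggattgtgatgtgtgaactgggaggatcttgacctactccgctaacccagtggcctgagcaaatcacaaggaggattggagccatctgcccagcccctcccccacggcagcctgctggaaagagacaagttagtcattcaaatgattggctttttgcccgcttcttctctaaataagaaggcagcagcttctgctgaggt
Tnc: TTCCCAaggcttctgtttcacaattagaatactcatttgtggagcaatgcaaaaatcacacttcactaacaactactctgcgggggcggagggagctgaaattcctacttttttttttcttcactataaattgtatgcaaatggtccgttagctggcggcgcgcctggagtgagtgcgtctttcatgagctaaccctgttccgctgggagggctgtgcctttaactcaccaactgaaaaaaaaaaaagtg
All 10 genes had such a window, 12 windows in all, since Tnc and Hopx have several starts. TGGGAA stood in 4 of the 12 windows (Fabp7, Mfge8 and both of Tnc, which overlap), against 21.6% of 32851 windows of the same length. TGCCAA stood in 1 (the inner start of Tnc; 12.3% of all windows), the SOX core AACAAT in 1 (Hopx; 9.42%) and the homeodomain core TAATTA in none (4.84%). These matches are letters in a window and carry no statement about binding.

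The libraries held 5534 cells (replicate 1) and 9136 cells (replicate 2) after filtering, with medians of 5498.5 and 4731 UMIs per cell. They shared 15 cell barcodes among these cells. Clustering was done without the 10 genes and without the related lists below. The gene 8030451A03Rik, which overlaps Tnc, was not left out, and it stood first among the leading genes of both RGC-like clusters. Of 36 clusters, 34 were named from marker genes, into 19 classes. The other 2 clusters (532 cells) belong to none of them. The classes still come from the same cells, so each test describes a level given the classes. There were 849 RGC-like cells (302 and 547), 763 IPC-like, 931 GABAergic progenitor-like and 43 glial-fated-like cells (21 and 22). RGC-like cells carried all 10 of their markers (among them Pax6, Hes5 and Sox2), at a sum of 1944 and 1925 CPM, against 790 and 1096 CPM in glial-fated-like cells (3 of the 10 markers at 0) and at most 840.1 CPM in IPC-like and 683 CPM in GABAergic progenitor-like cells. The 9 markers of glial-fated-like cells, led by Olig1 and Pdgfra, summed to 6413 and 6668 CPM there and to 161 and 157 CPM in RGC-like cells.

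RNA freed from broken cells gives UMIs in droplets of every cell type. Erythroid-like cells, which should lack these genes, served as a gauge of it. Fabp7 stood at 370 and 599 CPM in them (n = 2 libraries), and after each cell was thinned to 1500 UMIs, 49.6% and 63.7% of them held a Fabp7 UMI. Every other member was at most 47.6 CPM there, and Hopx had no UMI in 1184077. Median depth was 2725 and 2956 UMIs in erythroid-like cells and 7174.5 and 4992 UMIs in RGC-like cells, so shares of cells are given after thinning, which left out no cell. Shares in RGC-like cells before thinning are given in brackets where they are named.

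All 10 genes were higher in RGC-like cells than in excitatory neuron-like cells and higher than in IPC-like cells. RGC-like cells made up 5.72% of all cells and yet held 89.3% ± 1.20 of all Tnc UMIs (SD, n = 2), 66.9% ± 5.85 of those of Fabp7 and 30.5% ± 0.107 of those of Ptprz1. After thinning, an RGC-like cell held UMIs of 5.02 ± 0.155 of the 10 genes on average (SD, n = 2). A glial-fated-like cell held 3.33 ± 0.0107, an IPC-like cell 1.68 ± 0.00210, a GABAergic progenitor-like cell 1.43 ± 0.148 and an erythroid-like cell 0.751 ± 0.130. In the test across all genes (edgeR quasi-likelihood test, adjusted p by Benjamini-Hochberg), 10 of 10 passed as higher against the mean of the 4 excitatory neuron-like classes, where 30.8% of 15437 genes tested were called higher. Against IPC-like cells 10 of 10 passed as well, where 17.6% of genes were called higher. The median log2 fold change of the members was 4.86 against neurons and 2.56 against IPC-like cells, beside −0.02 and 0.03 over all genes tested. In both comparisons the lower of the 2 RGC-like libraries lay above the higher library of the other classes for every member.

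**Figure D1:**
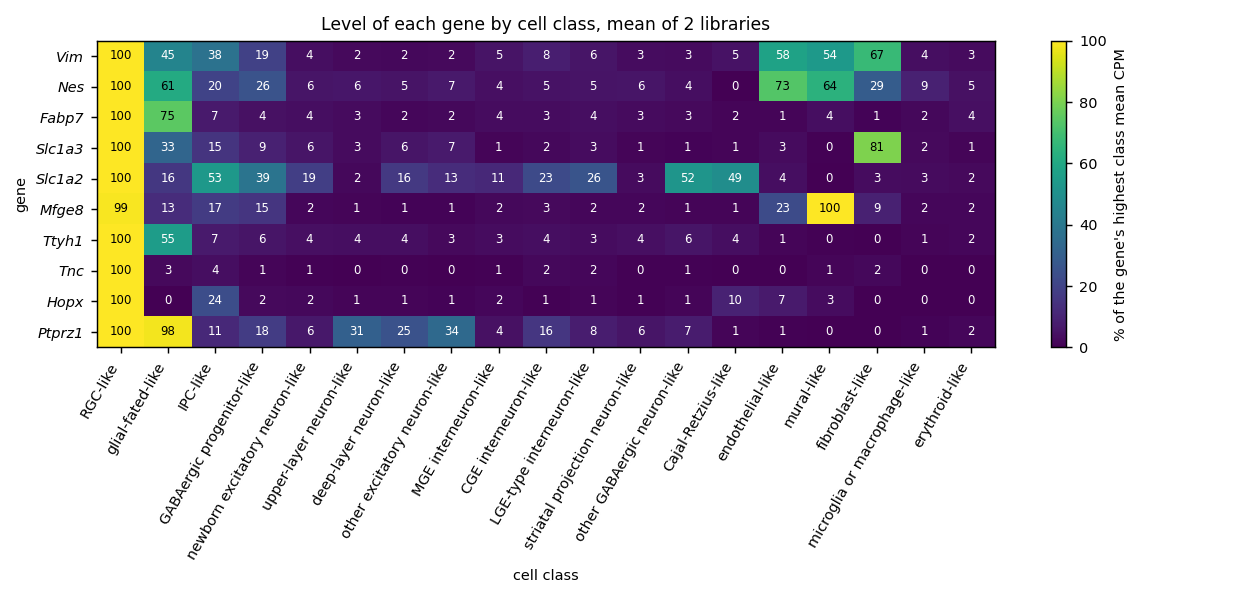
Mean CPM of each gene (rows) in each of 19 cell classes (columns), as a percent of the gene's own highest class, mean of 2 libraries. RGC-like cells are at 100 for every gene but Mfge8, where mural-like cells (477 CPM) and RGC-like cells (472 CPM) stand together, and Ptprz1 is almost as high in glial-fated-like cells.

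Vim and Nes encode vimentin and nestin, intermediate filament proteins of the radial fibre. Vim reached 1725 and 1404 CPM in RGC-like cells of replicates 1 and 2. It stood at 707 and 477 CPM in IPC-like cells and at 35.6 to 64.8 CPM in the excitatory neuron-like classes. Vim thus fell in steps, and the groups did not overlap, but the neuronal range took in the 47.6 and 43.1 CPM of erythroid-like cells, and the part of free RNA in neuronal Vim was not tested. The fitted log2 fold change was 1.34 ± 0.14 (SE) against IPC-like cells (adjusted p = 1.09e-10) and 5.05 ± 0.11 against neurons (adjusted p = 2.10e-36). Vim was also high outside the neural lineage, at 1217 and 889 CPM in fibroblast-like, 932 and 872 CPM in endothelial-like and 889 and 794 CPM in mural-like cells. Nes was at 129 and 121 CPM in RGC-like cells, 26.4 and 23.8 CPM in IPC-like cells and 4.86 to 9.28 CPM in excitatory neuron-like cells, within the 2.27 to 9.42 CPM of erythroid-like cells. A Nes UMI was found in 18.3% of thinned RGC-like cells (48.1% before thinning). Its level in endothelial-like cells, 64.1 and 119 CPM, did not overlap that in RGC-like cells but came close to it in replicate 2. Nes was listed at 0 in Cajal-Retzius-like cells.

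Fabp7 encodes the brain fatty acid binding protein, a lipid carrier of radial glia. Its level in RGC-like cells was 12433 and 12284 CPM, and 96.0% of thinned cells (99.3% before thinning) held a UMI. In the 9 neuron-like classes it lay between 191 and 536 CPM, which is within or below the 370 to 599 CPM of erythroid-like cells. In CPM, which scale with the depth of a class, the classes outside the neural lineage did not give 1 level of free RNA. Median depth was 12140 and 8338 UMIs in fibroblast-like against 2725 and 2956 UMIs in erythroid-like cells. There were 41 and 113 Fabp7 UMIs in 35 and 65 fibroblast-like cells, and 163 and 445 in 129 and 204 erythroid-like cells. The part of depth in these differences was not tested. Fabp7 was at 87.5 and 194 CPM in fibroblast-like, 141 and 224 CPM in endothelial-like, 276 and 214 CPM in microglia or macrophage-like and 494 and 468 CPM in mural-like cells. Newborn excitatory neuron-like cells, at 384 and 536 CPM, lay above the first 3 of these in both libraries and overlapped mural-like and erythroid-like cells. How much of neuronal Fabp7 was free RNA was not tested, and the log2 fold change of 5.21 ± 0.11 against excitatory neuron-like cells includes it. IPC-like cells were above all of these, at 834 and 943 CPM. The share of thinned IPC-like cells with a UMI, 55.6% and 63.6%, was close to that of erythroid-like cells. Thinning took more UMIs from IPC-like cells, whose median depth was 8583.5 and 7041 UMIs. Before thinning, 95.5% and 96.4% of IPC-like and 69.0% and 89.2% of erythroid-like cells held a UMI. The log2 fold change of RGC-like over IPC-like cells was 3.75 ± 0.17 (adjusted p = 1.15e-22).

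Slc1a3 and Slc1a2 encode GLAST and GLT-1, the glutamate transporters that astrocytes use to clear glutamate. Slc1a3 was at 806 and 906 CPM in RGC-like cells, 137 and 119.8 CPM in IPC-like cells and 22.9 to 66.7 CPM in excitatory neuron-like cells. It was also at 636 and 748 CPM in fibroblast-like cells, next below RGC-like cells and without overlap. Slc1a2 was less bound to one class. Its level was 135 and 155 CPM in RGC-like cells, 82.1 and 72.2 CPM in IPC-like cells and 84.1 and 67.5 CPM in a group of other GABAergic neuron-like cells. IPC-like, other GABAergic neuron-like and Cajal-Retzius-like cells (70.8 ± 12.1 CPM) overlapped one another. In upper-layer neuron-like cells Slc1a2 was at 2.54 and 4.18 CPM, which overlapped the 4.54 and 2.69 CPM of erythroid-like cells. The log2 fold changes against IPC-like cells were 2.67 ± 0.12 for Slc1a3 and 0.85 ± 0.14 for Slc1a2 (adjusted p = 7.47e-23 and 2.66e-06). The Slc1a2 call was lost when RGC-like cells were limited to their pallial cluster, described below (log2 fold change 0.06, adjusted p = 0.845 by edgeR).

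Tnc and Ptprz1 encode tenascin-C, a matrix glycoprotein, and a receptor tyrosine phosphatase of the cell surface that binds it. Tnc was the member most confined to RGC-like cells by fold. It was at 895 and 967 CPM there, 37.3 and 28.2 CPM in IPC-like cells and 1.23 to 7.22 CPM in excitatory neuron-like cells, a range that took in the 2.27 and 1.35 CPM of erythroid-like cells. The log2 fold change was 4.79 ± 0.18 against IPC-like cells and 7.85 ± 0.14 against neurons (adjusted p = 9.45e-39). Ptprz1 had a different pattern. It was at 2241 and 2355 CPM in RGC-like cells, dropped to 280.4 and 247 CPM in IPC-like cells and to 136 and 163 CPM in newborn excitatory neuron-like cells, and was again at 737 and 669 CPM in upper-layer and 553 and 600.3 CPM in deep-layer neuron-like cells. The layer neuron values lay above those of newborn neurons in both libraries, a difference that was not planned and not tested. Erythroid-like cells stood at 45.4 and 41.7 CPM, below all of these. The log2 fold change of Ptprz1 was accordingly 3.06 ± 0.13 between RGC-like and IPC-like cells and 2.13 ± 0.08 between RGC-like cells and the mean of neurons (adjusted p = 2.17e-23 and 6.68e-26).

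Mfge8 encodes a secreted protein that bridges dying cells to the cells that engulf them. It was at 492 and 452 CPM in RGC-like cells and at 533 and 421 CPM in mural-like cells, so both classes overlapped. IPC-like cells were at 86.0 and 79.5 CPM and excitatory neuron-like cells at 1.94 to 10.8 CPM, a range around the 9.07 and 9.42 CPM of erythroid-like cells, and the part of free RNA in it was not tested. The log2 fold change against neurons was 6.05 ± 0.14, with 6.81 in replicate 1 alone and 5.44 in replicate 2 alone. Ttyh1, a membrane protein of the tweety family of anion channels, was at 309 and 296 CPM in RGC-like cells, at 24.5 and 19.4 CPM in IPC-like cells and listed at 0 in fibroblast-like cells. In neuron-like classes it was at 7.25 to 19.2 CPM. Hopx, a small homeodomain protein that does not bind DNA by itself and marks outer radial glia in primates, was at 78.3 and 71.0 CPM in RGC-like cells and 23.7 and 11.7 CPM in IPC-like cells. Only 6.80% of thinned RGC-like cells held a Hopx UMI (24.2% before thinning). It was at most 1.95 CPM in any neuron-like class named excitatory or GABAergic. The log2 fold change against IPC-like cells was 2.05 ± 0.26 (adjusted p = 3.31e-08).

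**Figure D2:**
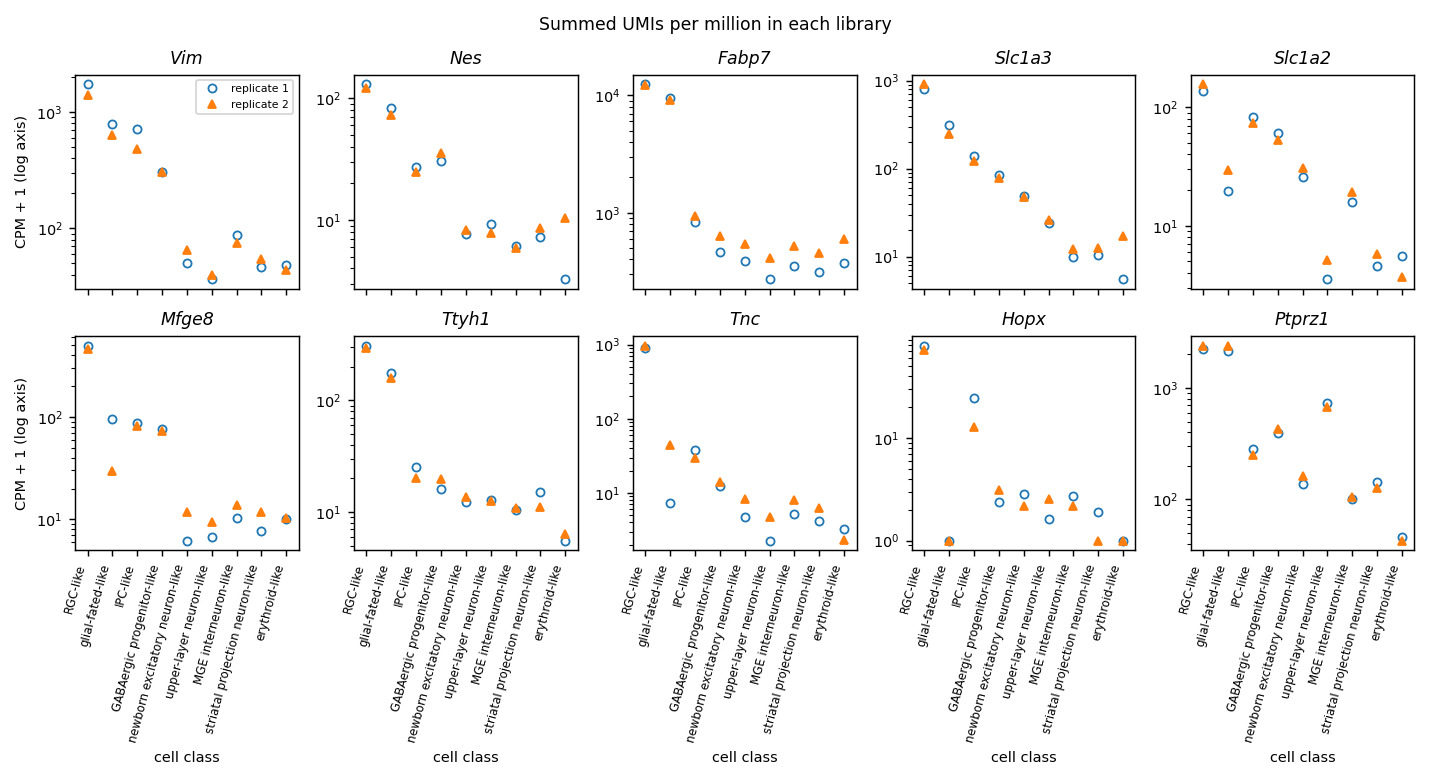
CPM + 1 on a log axis for each gene in 9 classes, circles for replicate 1 and triangles for replicate 2. The RGC-like points stand highest among these classes for all 10 genes except Ptprz1, where glial-fated-like cells overlap them, and the spread between libraries is widest where counts are few, as for Tnc in glial-fated-like cells.

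GABAergic progenitors of the subpallium also pass through a radial glial stage. Of the cells of this class 86.2% ± 1.65 were called S or G2M from the phase genes (SD, n = 2), against 46.6% ± 1.28 of erythroid-like, 10.5% ± 2.26 of MGE interneuron-like and 0.709% ± 0.00350 of other excitatory neuron-like cells, and they carried Dlx1 and Dlx2. All 10 genes were lower in them than in RGC-like cells, where 19.4% of genes tested were called higher in RGC-like cells, with a median log2 fold change of 3.01 over the members and −0.02 over all genes. Vim was at 307 and 303 CPM, Nes at 29.5 and 34.4 CPM and Ptprz1 at 394 and 425 CPM in GABAergic progenitor-like cells. Tnc was at 11.2 and 13.0 CPM and Hopx at 1.40 and 2.12 CPM. The gap between both progenitor classes was widest for Tnc (log2 fold change 6.20 ± 0.21, adjusted p = 1.36e-26) and Hopx (5.22 ± 0.39, adjusted p = 1.01e-14), and narrowest for Slc1a2 (1.33 ± 0.15) and Nes (1.90 ± 0.16). Fabp7, at 464 and 628 CPM, overlapped the erythroid-like level in CPM, though the classes differ in depth. There were 993 and 2077 Fabp7 UMIs in 324 and 607 GABAergic progenitor-like cells, and 163 and 445 in 129 and 204 erythroid-like cells. The part of free RNA was not tested.

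Against the mean of the 5 GABAergic neuron-like classes, 8 of 10 members passed as higher in GABAergic progenitor-like cells, beside 24.4% of genes tested. Mfge8 (log2 fold change 2.88 ± 0.20), Slc1a3 (2.43 ± 0.14), Nes (2.36 ± 0.20) and Vim (1.96 ± 0.12) differed most. Tnc (0.45 ± 0.31, adjusted p = 0.242) and Hopx (1.10 ± 0.67, adjusted p = 0.183) did not pass the edgeR test. Hopx had 10 UMIs in GABAergic progenitor-like cells and 17 in all GABAergic neuron-like cells. The calls for Fabp7 (0.42 ± 0.12, adjusted p = 0.00419) and Ttyh1 (0.54 ± 0.21, adjusted p = 0.0294) were lost under DESeq2, and Fabp7 overlapped the erythroid-like level on both sides. Among GABAergic neurons Vim was highest in CGE interneuron-like cells (115 and 151 CPM), as was Ptprz1 (353 and 379.6 CPM). Slc1a2 was highest in the other GABAergic neuron-like class, where 1 cluster with Zic1, Zic4 and Lhx8 among its 10 leading genes held 110 and 97.6 CPM.

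The difference between RGC-like cells and excitatory neurons was itself larger than that between GABAergic progenitors and their neurons for 10 of 10 genes, in an interaction test where 15.8% of genes were called in this direction. Tnc had the widest gap, 7.40 ± 0.39 on the log2 scale (adjusted p = 9.17e-20), and Fabp7 stood at 4.78 ± 0.19. Ptprz1 had the narrowest, 0.94 ± 0.14 (adjusted p = 4.51e-07), and it was no longer called when cells were classed by UMI gates on marker genes (0.36, adjusted p = 0.0559).

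**Figure D3:**
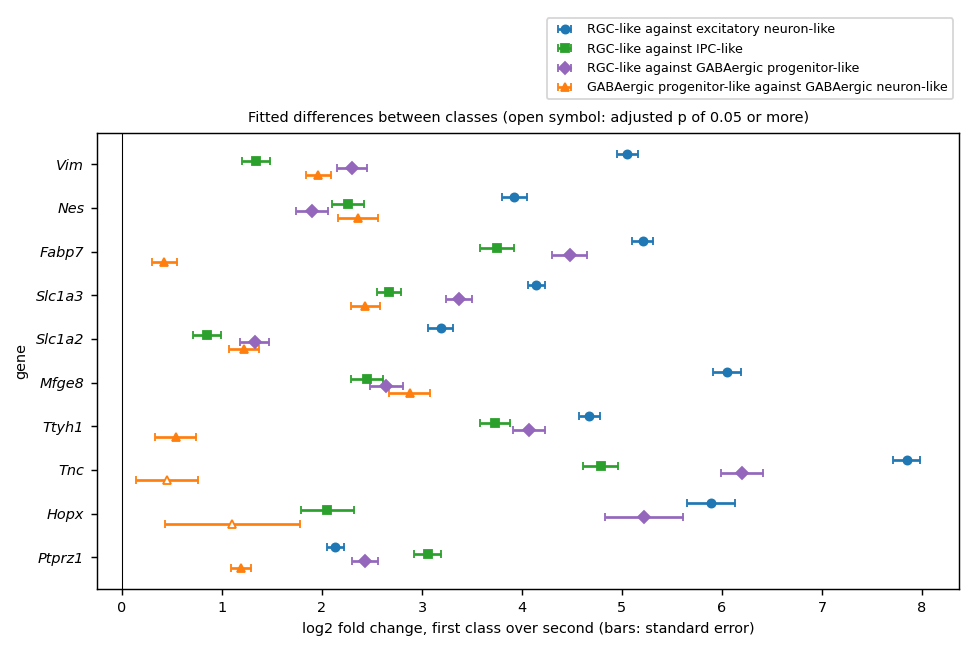
Fitted log2 fold changes (edgeR, points) with standard errors (bars) of each gene in 4 comparisons, with open symbols where the adjusted p was 0.05 or more. Only Tnc and Hopx between GABAergic progenitor-like and GABAergic neuron-like cells are open, and Ptprz1 is the one gene with a larger difference against IPC-like cells than against excitatory neuron-like cells.

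Glial-fated-like cells, with the Olig genes and Pdgfra of oligodendrocyte precursors, overlapped RGC-like cells in the level of 1 member, Ptprz1, and were below both RGC-like libraries in the other 9. Ptprz1 was at 2131 and 2392 CPM in them, overlapping RGC-like cells (log2 fold change −0.13 ± 0.14, adjusted p = 0.679). Fabp7 was at 9460 and 9053 CPM, and every thinned cell held a UMI. Nes was at 81.5 and 71.6 CPM, below both RGC-like libraries, but did not pass (−0.80 ± 0.32, adjusted p = 0.114). In all, 8 of 10 members were lower, beside 5.36% of genes tested that were called lower, and the median over members was −1.47 beside −0.31 over all genes.

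The widest differences were in Hopx, Tnc, Mfge8 and Slc1a2. Hopx had no UMI among 299141 in glial-fated-like cells, which, set at a floor of 3 counts over both libraries, made it at least 7.45-fold lower than in RGC-like cells (adjusted p = 3.13e-05). Tnc had 7 UMIs there, at 6.27 and 43.0 CPM. The 6 UMIs of replicate 2 all lay in 4.55% of its 22 cells, and replicate 1 had 1 UMI. The log2 fold change of Tnc was −5.41 ± 0.39, and −7.29 and −4.73 in replicates 1 and 2 alone. Mfge8 was at 94.0 and 28.6 CPM (−2.99 ± 0.36; −2.58 and −4.21 alone) and Slc1a2 at 18.8 and 28.6 CPM (−2.74 ± 0.45). Slc1a3, Vim and Ttyh1 differed less, at −1.71 ± 0.18, −1.24 ± 0.19 and −0.96 ± 0.22. The Fabp7 difference of −0.52 ± 0.16 (adjusted p = 0.0229) was lost under DESeq2 (adjusted p = 0.327), without TMM factors and without the library block, so it is close to the threshold. With 43 cells, counting error was large for the low genes.

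The RGC-like class held 2 clusters, and the members were not even between them. The pallial cluster (484 cells, 79.3% called S or G2M) carried Emx1 (34.5 ± 0.687 CPM), Tfap2c (74.3 ± 2.70 CPM) and Dmrta2, transcription factors of the dorsal telencephalon. The second cluster (365 cells, 31.8% called S or G2M) had Emx1 at 5.16 ± 0.158 CPM and Tfap2c at 7.05 ± 2.82 CPM. It held more of Otx2 (39.9 ± 6.43 against 1.65 ± 0.181 CPM), Foxj1 (33.4 ± 6.10 against 7.20 ± 1.56 CPM) and Ttr (298 ± 66.4 against 18.0 ± 25.5 CPM), genes known from choroid plexus and ciliated cells, and of the ventral factor Nkx2-1 (18.7 ± 8.65 against 0.254 ± 0.359 CPM). The RGC-like class as a whole is thus not only pallial. The part of such cells in the differences between the clusters was not tested.

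Slc1a2 was at 87.8 and 77.2 CPM in the pallial cluster and at 235 and 271 CPM in the second. Ttyh1 was at 239.8 and 211 against 456 and 421 CPM, and Ptprz1 at 1782 and 1849 against 3219 and 3105 CPM. Slc1a3 was at 741 and 727 against 946 and 1172 CPM. For these genes both libraries of the second cluster lay above both of the pallial cluster, as they did for Mfge8. Hopx lay the other way, at 91.4 and 92.5 CPM in the pallial cluster and 50.5 and 39.2 CPM in the second, and so did Vim, at 1893 and 1542 against 1369 and 1199 CPM. Nes, Tnc and Fabp7 overlapped between the clusters. The clusters were compared after their values were seen, so no test is given.

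**Figure D4:**
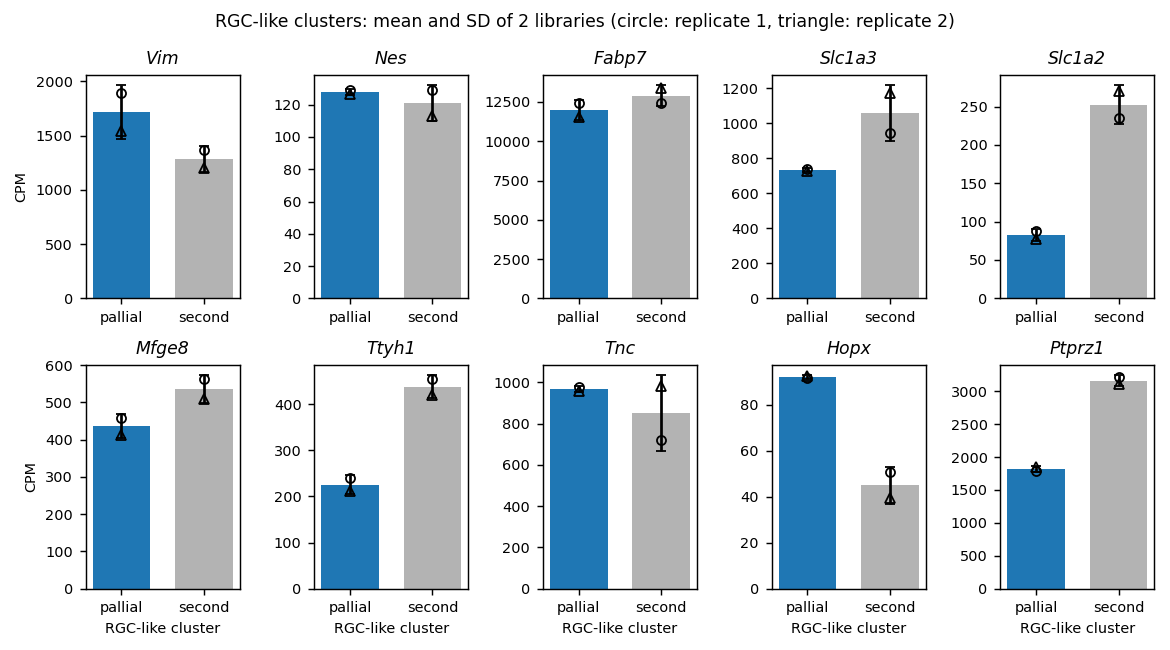
CPM of each gene in the pallial (blue) and the second (grey) RGC-like cluster, with bars for the mean, error bars for the SD and points for the 2 libraries. Slc1a2, Ttyh1 and Ptprz1 are higher in the second cluster, Hopx and Vim in the pallial cluster.

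Within RGC-like cells, 500 were called S or G2M, here named cycling, and 349 G1. These calls come from the phase genes alone and were not checked by another measure. In cycling cells 2 members were called higher, beside 11.7% of the 10994 genes tested, and 7 were called lower, beside 10.2% of genes. Tnc was at 987 and 1018 CPM in cycling and 702 and 896 CPM in non-cycling cells, and Hopx at 92.0 and 77.8 against 49.2 and 61.4 CPM. Slc1a2 was at 110 and 109.5 CPM in cycling and 187 and 219 CPM in non-cycling cells, and Ttyh1 at 259 and 219 against 415 and 404 CPM. The log2 fold changes were 0.33 ± 0.08 for Tnc, 0.58 ± 0.17 for Hopx, −0.89 ± 0.12 for Slc1a2 and −0.78 ± 0.09 for Ttyh1 (adjusted p = 0.00706, 0.0305, 0.000137 and 3.85e-05 by edgeR). Vim, Fabp7 and Slc1a3 differed less in replicate 1 than in replicate 2. Fabp7 was at 10807 in cycling against 14365 CPM in non-cycling cells there, and at 12350 against 12609 CPM in replicate 1. After the TMM scaling of the test, which the CPM do not carry, the log2 ratios in replicate 1 alone were −0.02 for Vim, 0.06 for Fabp7 and −0.0051 for Slc1a3, so that the sign of Fabp7 in replicate 1 depends on the scaling. In replicate 2 alone they were −0.21, −0.34 and −0.34. The scaled log2 ratio of Hopx was 0.99 in replicate 1 and 0.41 in replicate 2, and that of Tnc was 0.58 and 0.26.

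Since the clusters differ both in cycling share and in these genes, the comparison was repeated inside the pallial cluster, a choice made after the data were seen. Only 4 of 10 were then called, Tnc higher (0.37 ± 0.09) and Vim (−0.64 ± 0.07), Mfge8 (−0.38 ± 0.11) and Fabp7 (−0.24 ± 0.05) lower. The Hopx difference was 0.10 ± 0.23 (adjusted p = 0.849 by edgeR), and its call was also lost under DESeq2 (adjusted p = 0.673) and UMI gates (adjusted p = 0.0759). The Slc1a2 difference was −0.01 ± 0.24 and that of Ptprz1 turned to 0.18 ± 0.07 from −0.41 ± 0.05. DESeq2 and UMI gates each called 3 members. Tnc was higher in cycling cells in all of these fits, though not called by DESeq2 (0.35 ± 0.15, adjusted p = 0.223).

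**Figure D5:**
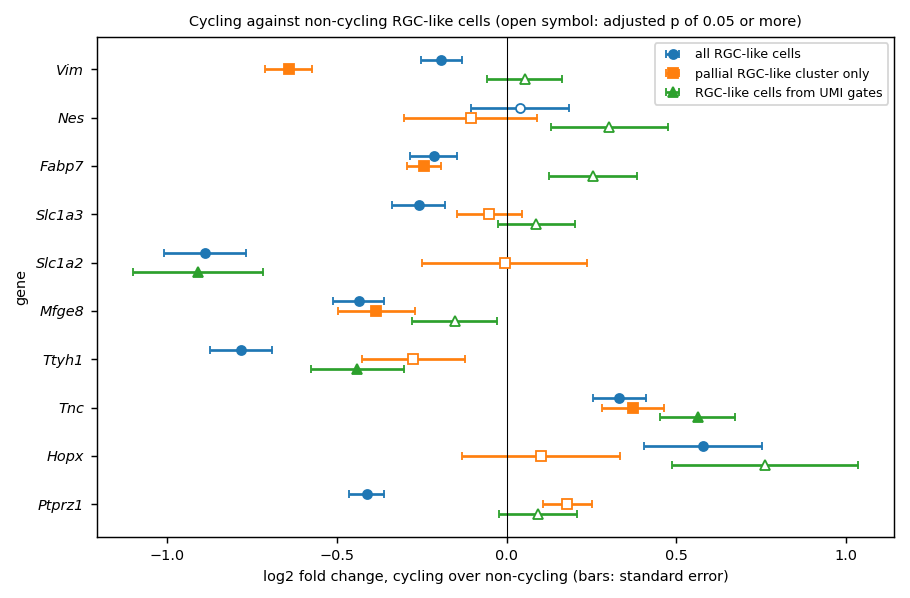
Log2 fold change of each gene in cycling over non-cycling cells (edgeR, bars for the standard error) in all RGC-like cells, in the pallial cluster only, and in cells classed by UMI gates, with open symbols where the adjusted p was 0.05 or more. Tnc is positive and filled in all 3, while Slc1a2 moves from −0.89 to −0.01 in the pallial cluster and Ptprz1 changes sign.

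Across the 19 classes, the members did not follow 1 pattern. Levels were lowest in deep-layer neuron-like cells for Vim (36.6 CPM), in fibroblast-like cells for Fabp7 (141 CPM), in mural-like cells for Slc1a3 (3.73 CPM) and Ptprz1 (6.63 CPM) and in the other excitatory neuron-like class for Mfge8 (4.76 CPM). Slc1a2 in mural-like and Tnc in microglia or macrophage-like cells were at 0. As a description over class means of log2(CPM + 1), which share libraries and free RNA, Vim and Mfge8 went most closely together (Pearson r = 0.925), followed by Nes and Mfge8 (0.883) and by Fabp7 and Ttyh1 (0.862). Vim and Ptprz1 (−0.101) and Nes and Slc1a2 (−0.166) did not go together. Among 7827 genes with at least 50 CPM in some class, Vim was most like Rcn1 (0.935), Mfge8 and Myo6 (0.923), and Nes most like Smpdl3a (0.947), Hes1 (0.924) and C430049B03Rik (0.898). Fabp7 was most like Hes5 (0.931), itself used to name RGC-like cells, Hepacam (0.928) and Aldoc (0.927). Slc1a3 went with Vcam1 (0.838), Creb5 (0.818) and Acot1 (0.795), and Slc1a2 with Ntn4 (0.866), Adgrb3 (0.828) and Agbl4 (0.822). The genes nearest to Mfge8 were Ddit4l (0.932), Vim and Rdm1 (0.922), and to Ttyh1 Nim1k (0.944), Hepacam (0.894) and AW047730 (0.887). Tnc was most like Ndrg2 (0.916), Pdpn (0.877) and 8030451A03Rik (0.857), which overlaps it, so reads of these may not be told apart. Hopx was nearest to 2010204K13Rik (0.827), Tgfb2 (0.823) and Fzd8 (0.806), and Ptprz1 to Gm35040 (0.917), Adamts3 (0.878) and Slc6a11 (0.877).

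Related genes from 4 lists were read in the same fits. In RGC-like against excitatory neuron-like cells, 30.8% of all genes tested were called higher and 28.9% lower. Of 27 astrocyte genes, 26 could be tested, and 25 of them stood higher in the RGC-like class than in excitatory neurons (median log2 fold change 4.13). The endothelin receptor Ednrb (6.49), Mlc1 (6.41) and the glycolytic enzyme Aldoc (6.17) differed most. Of 15 genes tested from the adhesion and polarity list 14 were higher (median 2.25), led by Nr2e1 (6.41), Pdpn (6.12) and Ddah1 (5.89). Not every gene of this list has such a role, as Nr2e1 encodes a nuclear receptor of neural stem cells. Of 6 basal radial glia genes tested 5 were higher (median 3.63), led by Pbxip1 (6.82), Dio2 (6.32) and Itgb5 (5.18). Of the 6 nuclear factor I and Id genes 4 were higher and 2 lower, a lower share near that of all genes. Id1 (5.24), Id3 (4.71) and Id4 (3.22), which hold back differentiation, were among the 4 higher genes. The lower genes were Nfib (−0.71) and Nfix (−1.54), both named after their values were seen. Not every higher gene is named, so these names do not set the Id genes against the nuclear factor I genes. Against IPC-like cells 25 of 26 astrocyte genes were higher, beside 17.6% of all genes, and against GABAergic progenitor-like cells 25 of 26, beside 19.4%.

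In glial-fated-like against RGC-like cells, 14 of 26 astrocyte genes were lower and 3 higher, beside 5.36% lower and 4.72% higher over all genes. Median log2 fold change was −1.98, or −1.83 with genes at 0 set to their bound. Aldh1l1 was at least 12.2-fold and Htra1 at least 7.08-fold lower, both without a UMI in glial-fated-like cells, and Mlc1 was called lower on 1 UMI (mean 3.13 CPM against 113 CPM). The genes that were higher were S100b (3.08 ± 0.50), Bcan (2.36 ± 0.26) and Cspg5 (1.75 ± 0.16), the last pair being proteoglycans of the matrix and cell surface that oligodendrocyte precursors also make. All 6 nuclear factor I and Id genes were lower (median −2.79), with Id4 at least 32.4-fold lower, Id1 on 1 UMI (3.13 against 90.5 CPM) and Nfix at −3.26 ± 0.42. In the adhesion and polarity list 9 of 15 genes were lower and 0 higher (median −1.66). Among the lower genes were Itga6, at least 8.15-fold lower, Celsr1 (6.27 against 117 CPM) and Nr2e1 (6.72 against 100.9 CPM). Of the basal radial glia genes 2 of 6 were lower, Itgb5 (3.13 against 51.5 CPM) and Pbxip1 (3.58 against 36.9 CPM), on 1 UMI each, with a list median of −2.41 that came to −0.65 with genes at 0 set to their bound.

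Within the GABAergic lineage, 8 of 26 astrocyte genes were higher and 3 lower in progenitor-like than in neuron-like cells (median 0.32), and 9 of 15 adhesion and polarity genes were higher and 3 lower (median 1.10). Over all genes 24.4% were higher and 23.2% lower, so the share of astrocyte genes called higher was near that of all genes. In cycling RGC-like cells 16 of 24 astrocyte genes were lower and 0 higher than in non-cycling cells (median −0.59), beside 10.2% and 11.7% of all genes, a comparison with the same limits as that of the members.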

How the data were processed

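The matrices deposited by the authors hold UMI counts, not normalized, for each gene and cell barcode. The submitters' processing notes name Cell Ranger 7.0.0 and the build mm10, while the file headers give version 7.1.0. Whether intronic reads were counted is not given in the sources used here. Totals were 46398156 and 64324236 UMIs over 9049 and 13556 barcodes. Cells with 1500 to 60000 UMIs and under 10% mitochondrial UMIs were kept (5966 and 10247). The Scrublet scores of scanpy 1.11.5 ranked possible doublets, and the highest were removed at 0.8% per 1000 barcodes (432 and 1111 cells). Cells were clustered together (Leiden, resolution 2, 2000 variable genes, 30 components) and a cluster was named "-like" from at least 3 detected markers. Naming rules were set with the clusters in view. The members, the gene lists and the tests were chosen with earlier results of these data known.

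UMIs were summed per library and class and tested with edgeR 4.0.16 (TMM, quasi-likelihood F-test, library as a block, at least 10 counts in at least 2 sums), with Benjamini-Hochberg adjustment over all genes tested and a call at 0.05. Classes of 1 library come from the same sample, which is where the pairing comes from. The SE given with edgeR values was worked back from the test, as the size of the log2 fold change over the square root of F. DESeq2 gave its own SE. Phase was scored from 42 S and 52 G2M genes, and the cycling comparison used 4 sums, so its spread leans on the trend over genes. Named were all 10 members, from each related list the 3 called genes with the largest change (10 CPM or more in the class where it was higher, same sign in both libraries), and per member the 3 genes of highest Pearson r. Nfib, Nfix, S100b, Bcan and Cspg5 were named after their values were seen. Alternatives were DESeq2 1.42.0, other scaling, filter, block, doublet, clustering and class choices, and each library alone. The test was run on simulated data first. Replicate numbers follow accession order and pair nothing.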

Additional observations from a re-analysis of the deposited data

Results flagged for a closer look

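For all 10 genes the difference between progenitors and neurons was larger from RGC-like to excitatory neuron-like cells than within the GABAergic classes, by a test of the difference itself (edgeR, library as a block, both libraries in the same direction). On the log2 scale the difference of differences was 7.40 for Tnc, 4.79 for Hopx, 4.78 for Fabp7, 4.14 for Ttyh1 and 3.17 for Mfge8. It was 3.09 for Vim, 1.97 for Slc1a2, 1.71 for Slc1a3, 1.57 for Nes and 0.94 for Ptprz1. In CPM, Fabp7 in the GABAergic classes overlapped erythroid-like cells but lay above fibroblast-like and endothelial-like cells. These classes differ in depth, and the part of free RNA in Fabp7 was not tested. Hopx had no UMI in erythroid-like cells and 17 UMIs in all GABAergic neuron-like cells.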

How the results depend on the processing

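The counts of members called stayed within 1.5 times under every alternative in 6 of the 7 comparisons. The exception was cycling against non-cycling RGC-like cells, with 9 called, where DESeq2 called 3, UMI gates called 3 and the pallial cluster alone, added after seeing the data, called 4. Over all genes that comparison went from 2414 calls to 602 under DESeq2 and 1278 in the pallial cluster. Called log2 fold changes reversed there under UMI gates for Vim (0.053), Ptprz1 (0.093), Fabp7 (0.25) and Slc1a3 (0.088), in the pallial cluster for Ptprz1 (0.18), and without replicate 2 for Fabp7 (0.060 in replicate 1 and −0.34 in replicate 2 after TMM scaling, while its unscaled CPM were lower in cycling cells of both libraries). The causes were not tested. No called log2 fold change reversed in the other 6 comparisons. Of values not called, Nes in the cycling comparison turned from 0.041 to −0.11 in the pallial cluster and in replicate 2 alone, Ptprz1 in glial-fated-like against RGC-like cells turned to 0.054 under DESeq2 and 0.12 in the pallial cluster, and Hopx in GABAergic progenitor-like against neuron-like cells turned to −0.84 under UMI gates. The fit without the replicate block called 7 members for GABAergic progenitor-like against neuron-like cells, 7 for glial-fated-like against RGC-like cells and 6 for the cycling comparison, and in the other 4 comparisons 10 each. UMI gates left too few glial-fated-like cells for a value there, and a fit of the compared classes only does not apply to the cycling comparison. Fits of each library alone carry no test. With 2 libraries and 43 glial-fated-like cells, small differences of Hopx, Nes and Slc1a2 were not detectable. Without doublet removal the members were lower in RGC-like cells, as Fabp7 at 11280 in place of 12358 CPM.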

Other observations

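A cluster of 206 cells led by Sst that was given no name, with a median of 2434.5 UMIs per cell, held Fabp7 at 1894 CPM in replicate 1 and 4221 CPM in replicate 2, above every neuron-like class. Tnc was at 80.6 and 60.6 CPM and Vim at 259 and 389 CPM in it. A cluster of other excitatory neuron-like cells held Slc1a3 at 165 and 187 CPM, above the IPC-like level of 137 and 119.8 CPM, with Fabp7 at 141 and 228 CPM, below the erythroid-like level. These values belong to no comparison and were not tested.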
